A study of Mus musculus with 41 samples.

Results

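Marginal zone B cells of the mouse spleen were compared with follicular B cells of the same organ, both from wild-type (wt) animals, to see which genes set the subsets apart across the whole transcriptome. The libraries were chosen by their labels alone: 3 labelled MarginalZone wt and 4 labelled Follicular wt, 7 of the 41 bulk RNA-seq libraries of the series, which covers 6 splenic B cell subsets in 2 genotypes. Animals were 3 to 5 months old. Both gates took B220+ cells and left out cells positive for CD93, CD138, GL7 or FAS. Cells were then sorted as MarginalZone if CD21+CD23- and as Follicular if CD21+CD23+. The second genotype, labelled 1Mek2, is floxed at both Mek1 alleles, carries 1 intact Mek2 allele and has the Vav1-icre transgene, whose Vav1 promoter is active across blood cells; its 3 MarginalZone and 4 Follicular libraries served as a second set. By the animal number in the library names, the wt libraries came from 5 mice. Animals 412 and 562 gave a library of each subset (MarginalZone replicates 1 and 3, Follicular replicates 1 and 2), animal 358 gave MarginalZone replicate 2, and animals 670 and 671 gave Follicular replicates 3 and 4.

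Marginal zone B cells lie at the border between red and white pulp, where blood-borne particles pass, and respond early to microbial products. Follicular B cells recirculate and enter follicles, where T cells help them respond. Marginal zone cells depend on Notch2, a receptor that is cut on contact with its ligand and then releases a fragment that works with the DNA-binding protein RBPJ. The sphingosine-1-phosphate receptors S1PR1 and S1PR3 hold them in the marginal zone, CD21 (encoded by Cr2) and CD1d are abundant on their surface, and CD23 (Fcer2a) is low.

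Total gene-span counts, which include introns, ran from 20473400 to 34925700 per library for MarginalZone and from 25201800 to 33450200 for Follicular. Some libraries stood apart in the values. MarginalZone replicate 2 and Follicular replicate 4, from different animals, were each other's closest library among the 7 (Spearman correlation 0.944), and reads on exons came to 77.8% and 87.3% of their gene-span counts, against 50.8% to 64.3% in the other 5 libraries. MarginalZone replicate 1 was also closest to a Follicular library, replicate 1 of the same animal 412 (0.965). MarginalZone replicate 3 had the lowest share on exons (50.8%) and the highest sum over 20 long neuronal genes, at 234 CPM (counts scaled to library size with TMM factors) against 31.6 to 79.7 CPM in the other 6. Of that sum Lsamp gave 140 CPM and Dmd 54.1 CPM, against 1.09 to 28.5 and 2.45 to 21.7 CPM in the other libraries. The high sum thus rests on these genes and is no general excess over the list. Dmd, Csmd3, Dab1 and Ctnna3 were also higher in every MarginalZone than in every Follicular library, and Ctnna2 was lower. These are 4 and 1 of the 20, against 5.04% and 5.26% of all genes tested. The log2 fold change, MarginalZone minus Follicular, was above 0 for 15 of the 20, with a median of 0.41 against 0.02 over all genes tested. The part of such reads in the results was not tested. The log2 of a sum over this list is the background covariate used further on. Animal 562, which gave MarginalZone replicate 3 and Follicular replicate 2, alone of the 5 had reads on exons of Ddx3y, a gene of the Y chromosome. For some results that rest on MarginalZone replicate 2 or Follicular replicate 4, a value without them or with a model term that marks the pair is also given.

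The gates and identities could be read in the counts. Fcer2a (chromosome 8, 3730280 to 3744174 in GRCm39), the gene of CD23 that the gates select on, had 11.8, 26.3 and 4.27 CPM in MarginalZone replicates 1 to 3, against 399, 302, 319.5 and 1143 CPM in Follicular replicates 1 to 4. The groups lay far apart, and Follicular replicate 4 alone was well above the others. The log2 fold change, MarginalZone minus Follicular throughout, was -5.25 ± 0.84 (SE; edgeR quasi-likelihood test, adjusted p = 0.0407, and up to 0.179 without 1 library). Cr2, the gene of CD21, had 1906, 1557 and 1835 CPM in MarginalZone and 910.3, 615, 612 and 561 CPM in Follicular libraries. Both gates ask for CD21, and each MarginalZone library had more of it than each Follicular library (1.39 ± 0.33, adjusted p = 0.147). Ptprc, whose product carries the B220 epitope, differed by 0.08 ± 0.40. Among markers of the excluded cells, Cd93 had at most 2.07 CPM in MarginalZone and 5.80 CPM in Follicular libraries, and Fas at most 12.7 and 10.5 CPM. Sdc1 (CD138) was below without overlap, at 0.388 CPM or less in MarginalZone and 1.10 to 9.38 CPM in Follicular libraries (-3.98 ± 1.37, adjusted p = 0.402).

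The 3 markers taken for marginal zone cells were S1pr3, Asb2 and Myof. S1pr3 (chromosome 13, 51562654 to 51576833) had 97.0, 188 and 119 CPM in MarginalZone and 7.47, 5.52, 6.44 and 25.1 CPM in Follicular libraries, where replicate 4 was the highest. The groups did not overlap, yet the log2 fold change of 3.59 ± 0.61 missed the threshold (edgeR, adjusted p = 0.055). It passed with the term for the pair of libraries that stood apart (3.72 ± 0.32, adjusted p = 0.0014), without that pair (4.05, 0.012), with the animal as block (4.06, 5.21e-06) and in reads on exons (3.99, 0.042). Over the 23 alternatives its adjusted p ran from 5.21e-06 to 0.241. The block fit draws its contrast from animals 412 and 562 alone, so its p-values, here and below, rest largely on spread pooled across genes. A gene on the opposite strand, Gm32834, covers 71.3% of the span of S1pr3, and how the counting treated strand is not given in the sources used here. Asb2 (chromosome 12, 103287401 to 103322260), which guides a ubiquitin ligase to filamins, had 148, 41.8 and 178 CPM in MarginalZone against 4.53, 4.04, 10.5 and 7.72 CPM in Follicular libraries (4.19 ± 0.60, adjusted p = 0.0251). Without 1 library at a time it was called in 1 of 7 fits (adjusted p up to 0.135), and its exon reads missed the threshold (0.0592). Gm15523, on the opposite strand, covers 34.8% of its span. Myof (chromosome 19, 37887484 to 38032025), a ferlin of membrane repair and fusion, had 63.2, 56.1 and 164 CPM against 0.792, 1.70, 1.88 and 1.56 CPM (5.99 ± 0.58, adjusted p = 0.00435). All 3 markers were thus higher in every MarginalZone library than in every Follicular one, and the label held against Follicular libraries.

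**Figure D1:**
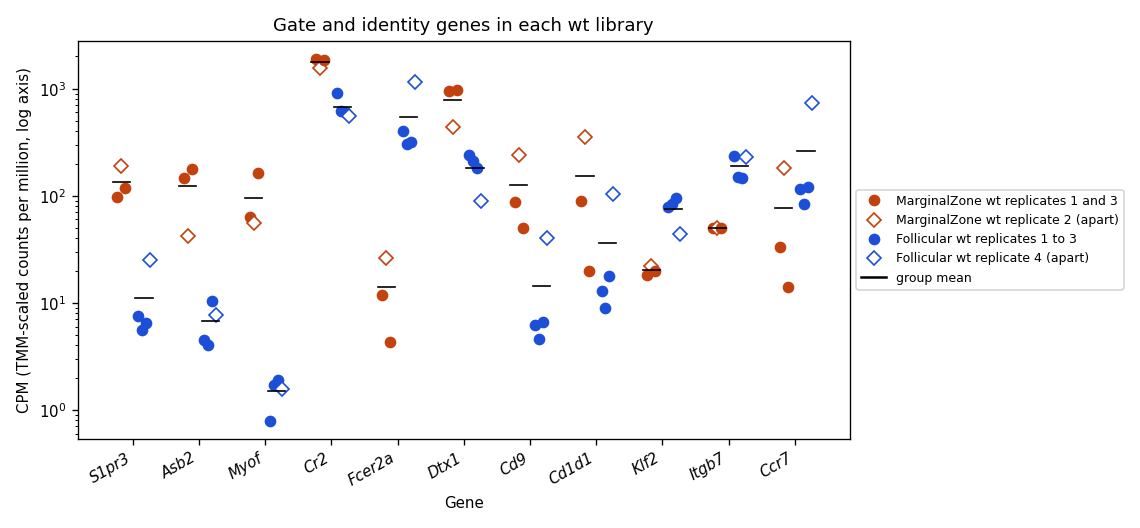
CPM of 11 gate and identity genes in each wt library on a log axis, MarginalZone left of Follicular; open diamonds are the pair of libraries that stood apart and bars are group means. The groups are separate for S1pr3, Asb2, Myof, Cr2, Fcer2a, Dtx1, Cd9, Klf2 and Itgb7 and overlap for Cd1d1 and Ccr7, where the diamonds are the highest of their groups.

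The promoters of 3 identity genes are shown because marginal zone cells need Notch signals and RBPJ binds sequences with the core TGGGAA. Each window covers 250 bases before to 50 bases after the RefSeq gene start in GRCm38.p6, in the direction of the gene, with TGGGAA in capitals where it occurs.
S1pr3, chr13:51408368-51408667, plus strand: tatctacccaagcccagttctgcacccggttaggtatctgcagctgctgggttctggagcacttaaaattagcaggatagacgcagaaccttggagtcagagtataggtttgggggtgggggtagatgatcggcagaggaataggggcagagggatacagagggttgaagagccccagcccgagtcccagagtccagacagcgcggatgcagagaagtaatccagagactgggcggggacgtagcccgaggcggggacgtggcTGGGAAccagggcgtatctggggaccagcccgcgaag
Myof, chr19:38043528-38043827, minus strand: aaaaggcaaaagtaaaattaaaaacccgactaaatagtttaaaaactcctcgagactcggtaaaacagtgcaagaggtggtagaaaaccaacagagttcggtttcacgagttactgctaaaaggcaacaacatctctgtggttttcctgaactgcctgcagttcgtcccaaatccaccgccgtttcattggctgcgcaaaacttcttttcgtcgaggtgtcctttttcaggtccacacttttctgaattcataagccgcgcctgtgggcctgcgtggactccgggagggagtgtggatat
Dtx1, chr5:120711620-120711919, minus strand: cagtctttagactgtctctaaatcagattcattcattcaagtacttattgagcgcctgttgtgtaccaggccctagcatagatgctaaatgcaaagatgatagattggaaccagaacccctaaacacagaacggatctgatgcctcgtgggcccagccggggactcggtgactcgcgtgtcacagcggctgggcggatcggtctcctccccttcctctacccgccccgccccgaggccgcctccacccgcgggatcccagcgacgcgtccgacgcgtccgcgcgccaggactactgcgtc
The S1pr3 window holds the core once, 13 bases after the start, and the windows of Myof and Dtx1, an established Notch target, hold none on either strand. Neither of the 2 windows of Asb2 holds it. Of the 50 called genes described next, 43 had a window in the RefSeq table. TGGGAA occurred on either strand in 13 of 50 windows of higher genes (26%), in 8 of 16 windows of lower genes (50%) and in 8397 of all 32851 windows (25.6%). CACCC, the short core bound by Klf2 and other members of its family, occurred on either strand in 22 of 50 windows of higher genes (44%), 12 of 16 of lower genes (75%) and 18895 of all 32851 (57.5%). The motifs can share bases, and a match is a description of these letters only.

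Across 14699 genes tested, 50 passed an adjusted p of 0.05 (0.34%), 40 higher (0.272%) and 10 lower (0.068%) in MarginalZone than in Follicular libraries. The groups did not overlap in CPM for 1514 genes (10.3%), of which 741 (5.04%) were above and 773 (5.26%) below, and 1272 had an unadjusted p under 0.05. With the term for the libraries that stood apart 263 genes passed (1.79%), 201 higher (1.37%) and 62 lower (0.422%), all 50 among them. Without those libraries 59 passed (0.397%), 52 higher (0.35%) and 7 lower (0.0471%), 40 of the 50 among them. The animal as block gave 116 (0.789%), 84 higher (0.571%) and 32 lower (0.218%), with 40 of the 50. That fit rests on the 2 animals that gave both subsets and has few residual degrees of freedom, so its p-values lean on spread pooled across genes. Reads on exons gave 15 (0.103%), 12 higher (0.0827%) and 3 lower (0.0207%), and of 48 of the 50 that could be tested there, 48 had the same direction and 14 were called. Leaving out Follicular replicate 1, 2 or 3 or MarginalZone replicate 1 left 12, 11, 11 or 13 genes. DESeq2 called 542, with 326 higher and 216 lower, and held all 50. No called gene changed direction in any alternative run. The 10 genes not called with the animal as block were Trpm2 (adjusted p = 0.0787), Ly96 (0.0635), Art4 (0.0507), Cc2d2b (0.0695), Sirpa (0.0695), Pik3r4 (0.0642), Robo1 (0.129), Gm38748 (0.137), Chn2 (0.173) and Klf5 (0.242). The 10 not called without the libraries that stood apart had adjusted p-values between 0.0555 (Sirpa) and 0.0921 (Trpm2 and Ryr2), and the others were Ffar2, Art4, Gadd45g, Col6a4, Cc2d2b, Chn2 and Klf5.

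**Figure D2:**
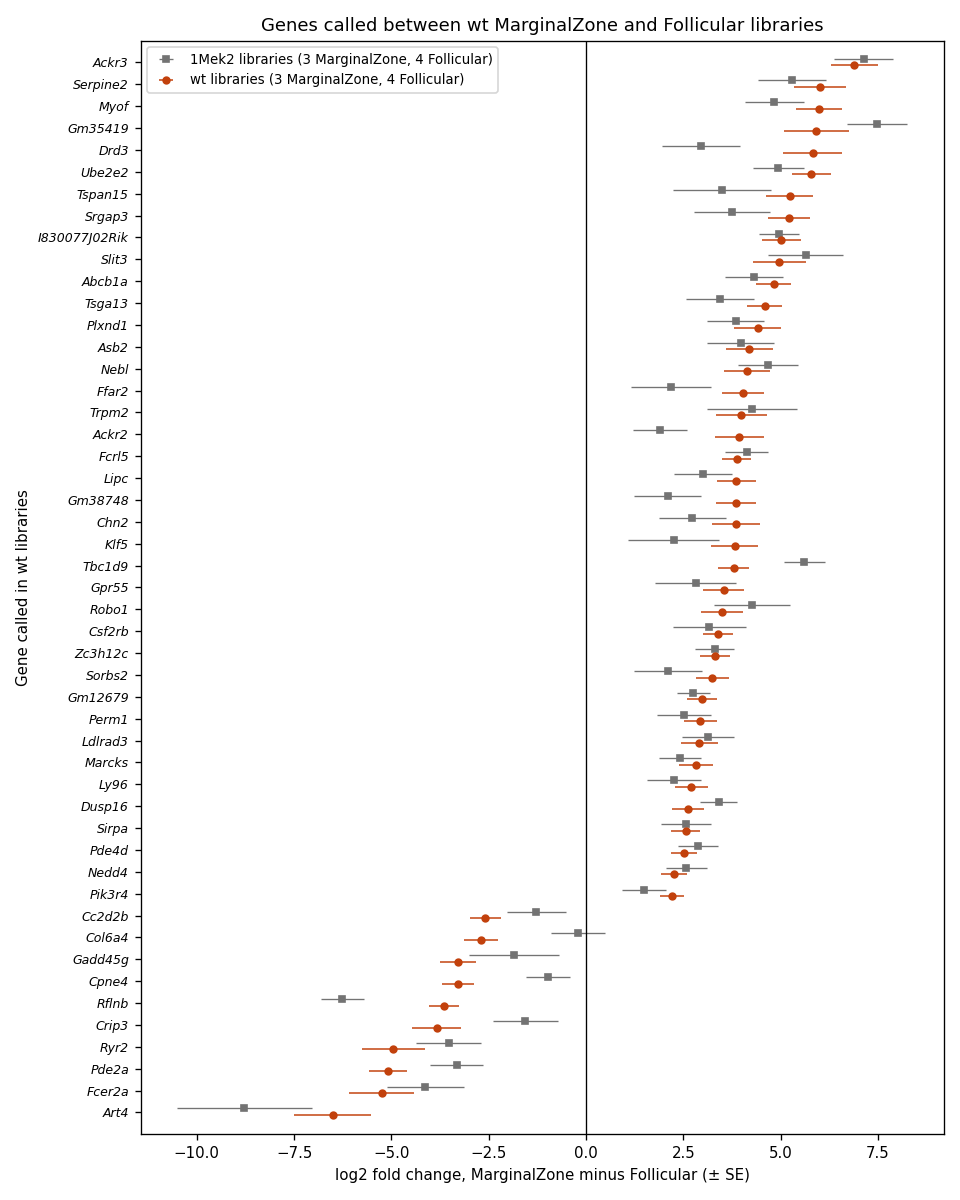
Log2 fold change (MarginalZone minus Follicular) with its SE for 49 of the 50 genes called in wt, in the libraries labelled 1Mek2 (grey squares) and in wt (orange circles). Every square lies on the same side of 0 as its circle.

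Several receptors and sensors were higher. Ackr3, an atypical receptor that takes up the chemokine CXCL12 without G protein signals (chromosome 1, 90131702 to 90143446), had the largest log2 fold change of the 40. Its 280.5, 181 and 805 CPM in MarginalZone stood against 3.58, 2.90, 3.56 and 4.23 CPM in Follicular libraries, a ratio of means of 118 (log2 fold change 6.88 ± 0.60, adjusted p = 0.00435). Ackr2, an atypical receptor that clears inflammatory chemokines of the CC family, had 35.7, 113 and 42.1 CPM against 2.79, 2.27, 4.002 and 7.57 CPM (3.93 ± 0.62, adjusted p = 0.0392). Both scavenging receptors were thus low in every Follicular library and high in every MarginalZone one. Ffar2, a receptor of short-chain fatty acids, had 54.5, 45.1 and 23.9 CPM in MarginalZone and 1.25, 3.43, 2.82 and 2.60 CPM in Follicular libraries (4.02 ± 0.54); a gene on the other strand covers 61.9% of its span. Its exon reads also passed (4.11, adjusted p = 0.0391). Ly96, or MD-2, which binds lipopolysaccharide together with TLR4, had 42.6, 40.1 and 70.2 CPM against 6.68, 6.69, 7.83 and 9.99 CPM (2.71 ± 0.42, adjusted p = 0.0342). Fcrl5, an Fc receptor-like protein of the B cell surface, had 211, 274 and 456 CPM against 18.6, 22.0, 22.6 and 22.7 CPM (3.87 ± 0.37, adjusted p = 0.00435). Trpm2, the gene of a calcium-permeable channel, had 27.0, 11.3 and 18.5 CPM against 2.11, 0.531, 0.794 and 1.32 CPM (3.99 ± 0.66, adjusted p = 0.0457).

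Other higher genes encode membrane, cytoskeletal or secreted proteins. Serpine2, an inhibitor of serine proteases such as thrombin, had 58.2, 292 and 145 CPM in MarginalZone and 1.28, 3.26, 1.91 and 3.77 CPM in Follicular libraries (6.01 ± 0.67, adjusted p = 0.00778). Tspan15, a tetraspanin that steers the protease ADAM10, had 35.8, 26.0 and 12.6 CPM against 0.491, 0.673, 0.5002 and 0.950 CPM (5.24 ± 0.61, adjusted p = 0.0083). Adam10 itself overlapped between the groups (0.48 ± 0.31). Plxnd1, a semaphorin receptor, had 43.0, 23.5 and 44.4 CPM against 0.906, 2.37, 2.77 and 0.919 CPM (4.404 ± 0.61, adjusted p = 0.0221). Marcks, a substrate of protein kinase C that binds actin and the plasma membrane, had 192, 276 and 121 CPM against 16.6, 24.4, 25.6 and 44.3 CPM (2.82 ± 0.44, adjusted p = 0.039). Each of these groups was separate, although the order of the MarginalZone libraries differed between genes: replicate 2 was the highest for Serpine2 and Marcks, and not for Tspan15 or Plxnd1. Nebl, an actin-binding nebulette, was higher by 4.13 ± 0.60.

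Among enzymes, Ube2e2, which conjugates ubiquitin, had 301, 179 and 623 CPM in MarginalZone and 6.30, 6.62, 8.36 and 5.42 CPM in Follicular libraries (5.78 ± 0.51, adjusted p = 0.00435). Abcb1a, the P-glycoprotein drug efflux pump, had 79.1, 107 and 156 CPM against 4.83, 2.69, 5.41 and 3.22 CPM (4.82 ± 0.46, adjusted p = 0.00435); reads may be split with its close paralog Abcb1b. Zc3h12c, an RNase of the Regnase family that restrains inflammatory transcripts, had 376, 236 and 505 CPM against 36.3, 45.3, 43.8 and 25.6 CPM (3.30 ± 0.39, adjusted p = 0.00967). These 3 genes were separate by a wide margin. I830077J02Rik had 211, 227 and 186 CPM against 3.92, 3.89, 6.06 and 11.8 CPM (5.02 ± 0.50, adjusted p = 0.00435). Tsga13 and the predicted gene Gm35419, with no role given here, were higher by 4.58 ± 0.45 and 5.91 ± 0.83.

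Some called genes had few reads on exons. The mean level in MarginalZone libraries was 1.29 TPM (a level per exonic length) for the dopamine receptor gene Drd3, 1.71 TPM for Srgap3, the gene of a GTPase-activating protein, and 0.733 TPM for Slit3, the secreted ligand of Robo receptors, although their gene-span log2 fold changes were 5.82 ± 0.76, 5.21 ± 0.54 and 4.96 ± 0.67. Drd3 had too few exon reads to test, and the exon fold changes of Srgap3 and Slit3 did not pass (adjusted p = 0.398 and 0.518). Robo1 and Chn2, named after their values were seen, were at 0.0845 and 0.162 TPM in MarginalZone libraries. In all, 31 of the 50 called genes overlap another gene, 2 of them (Ffar2 and Sorbs2) over more than 50% of their span. The share of all genes tested with such an overlap was not computed, so these counts do not set the called genes apart.

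Further called genes lay below the first 20 in fold change, and those named in this paragraph were picked out after their values were seen. Csf2rb, the shared chain of the receptors for GM-CSF, IL-3 and IL-5, was higher by 3.39 ± 0.38, with reads possibly shared with its close paralog Csf2rb2. Sirpa, the receptor of CD47, was higher by 2.56 ± 0.38, and Gpr55, a receptor of lysophospholipids, by 3.53 ± 0.54. The transcription factor gene Klf5 was higher by 3.81 ± 0.61. Of signalling enzymes, Pde4d, which breaks down cyclic AMP, was higher by 2.53 ± 0.33, Dusp16, a phosphatase of JNK and p38, by 2.62 ± 0.41, the ubiquitin ligase Nedd4 by 2.25 ± 0.34 and Pik3r4, a subunit of the class III phosphoinositide kinase, by 2.20 ± 0.31.

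The 10 lower genes included a phosphodiesterase, a calcium release channel and a partner of filamins. Pde2a, a phosphodiesterase that cyclic GMP stimulates to break down cyclic AMP (chromosome 7, 101070905 to 101162026), had 4.73, 3.22 and 4.01 CPM in MarginalZone and 137, 173, 159 and 73.3 CPM in Follicular libraries (-5.09 ± 0.48, adjusted p = 0.00435). Ryr2, a calcium release channel, had 1.67, 0.346 and 0.324 CPM against 22.5, 23.8, 35.6 and 15.4 CPM (-4.96 ± 0.81, adjusted p = 0.0441), with no exon reads in MarginalZone libraries and a mean of 0.649 TPM in Follicular ones. The phosphodiesterase genes Pde2a and Pde4d were therefore called in opposite directions. Rflnb, a partner of filamins, had 9.73, 13.0 and 9.19 CPM against 116, 168, 139 and 109 CPM (-3.64 ± 0.38, adjusted p = 0.00502). Gadd45g, a stress gene of growth arrest, had 26.8, 17.9 and 9.91 CPM against 232, 165, 185 and 129.5 CPM (-3.29 ± 0.46, adjusted p = 0.0226). For Rflnb and Gadd45g the highest MarginalZone library was well below the lowest Follicular one. Art4, an ADP-ribosyltransferase family member, had 0.0901, 0.0798 and 0.194 CPM against 5.40, 6.83, 5.77 and 25.3 CPM (-6.51 ± 0.99, adjusted p = 0.0343), with Follicular replicate 4 well above the rest. The collagen chain gene Col6a4, the copine gene Cpne4, the LIM protein gene Crip3 and Cc2d2b had log2 fold changes of -2.70 ± 0.44, -3.29 ± 0.42, -3.83 ± 0.62 and -2.58 ± 0.41, with Fcer2a the remaining one.

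**Figure D3:**
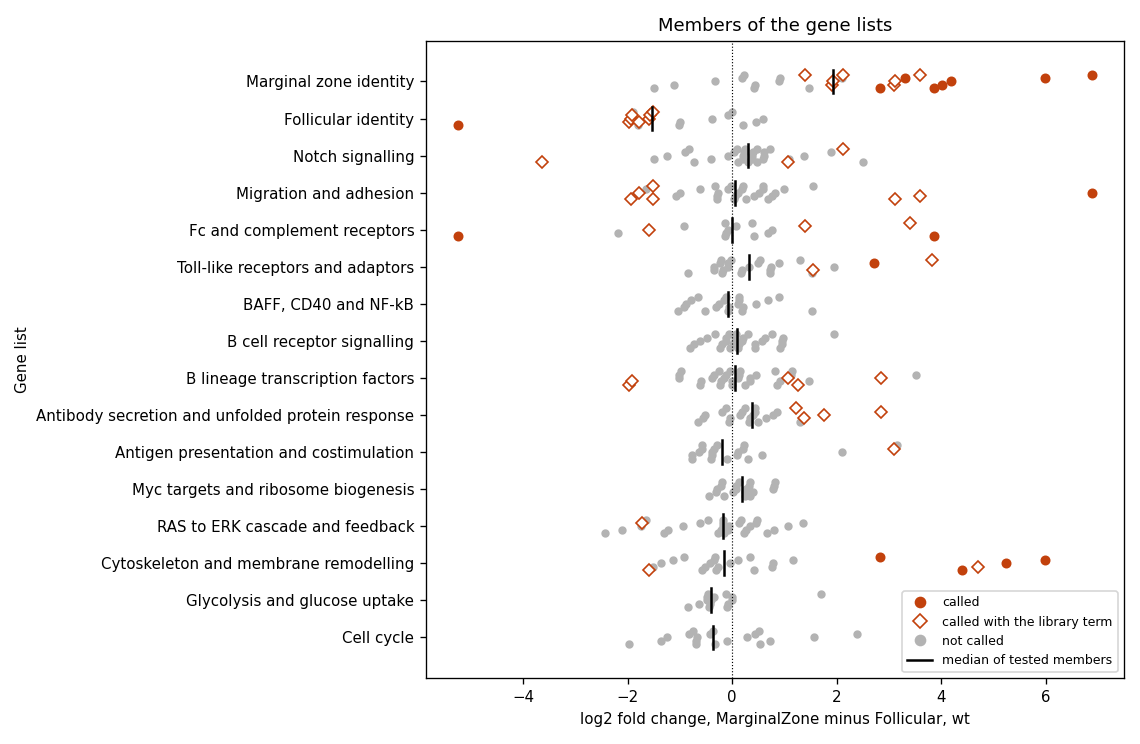
Log2 fold change (MarginalZone minus Follicular, wt) of each tested member of 16 gene lists, with list medians as black bars. Filled orange points were called, open diamonds were called with the term for the libraries that stood apart and grey points were not. Only the 2 identity lists have medians beyond 1 on either side, at 1.93 and -1.54.

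The log2 fold change was above 0 for 22 of 25 marginal zone identity genes and for 3 of 18 follicular identity genes. Of 25 tested marginal zone identity genes, 7 rose (Asb2, Myof, Fcrl5, Ackr3, Marcks, Ffar2 and Zc3h12c), none fell, and 14 lay above without overlap, where 0.272% of all genes tested rose and 5.04% lay above, with a median log2 fold change of 1.93 against 0.02 over all genes. With the term for the libraries that stood apart all 14 passed, and without those libraries 11 did. Those 14 included Cd9, a tetraspanin, at 86.5, 239 and 50.4 CPM in MarginalZone and 6.23, 4.60, 6.59 and 40.5 CPM in Follicular libraries (3.11 ± 0.87, adjusted p = 0.259). Plac8 had 939, 796 and 1299 CPM against 245, 264, 211 and 341 CPM (1.93 ± 0.34, adjusted p = 0.0564). In both groups the library that stood apart was the highest for Cd9. With the animal as block both genes passed (adjusted p = 7.2e-05 and 0.0119). Cd1d1, the gene of the lipid-presenting CD1d, overlapped between groups, with 88.8, 355 and 19.6 CPM against 12.8, 8.92, 17.8 and 104 CPM (2.10 ± 1.05, adjusted p = 0.626). The overlap was with Follicular replicate 4 alone. The log2 fold change was 3.56 without that library, 0.57 without MarginalZone replicate 2 and 2.02 without both, and none of these passed (adjusted p = 0.248, 0.808 and 0.303). The list was drawn up with earlier results of these libraries known, so its direction is not independent evidence.

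Of 18 tested follicular identity genes, Fcer2a fell, 10 lay below without overlap (5.26% of all genes tested), none lay above, and the median was -1.54. Klf2, a transcription factor of recirculating cells, had 18.4, 22.1 and 19.6 CPM in MarginalZone and 78.4, 83.3, 96.2 and 44.2 CPM in Follicular libraries (-1.91 ± 0.40, adjusted p = 0.108). Itgb7, an integrin chain of gut homing, had 50.3, 50.2 and 49.7 CPM against 234, 151, 146 and 231 CPM (-1.93 ± 0.34, adjusted p = 0.0595). Both genes were separate between the groups and missed the threshold. Ccr7, a chemokine receptor that directs cells into T cell zones, overlapped between groups, at 33.1, 182 and 14.2 CPM against 115, 83.4, 119.9 and 729.6 CPM (-1.78 ± 1.03, adjusted p = 0.689). MarginalZone replicate 2 was above each Follicular library but replicate 4. With the animal as block Ccr7 passed (-2.17, adjusted p = 0.0181). With the term for the libraries that stood apart 8 members passed, Klf2, Itgb7 and Ccr7 (-2.12 ± 0.33, adjusted p = 0.0216) among them.

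No gene of the Notch pathway passed among 31 tested, with a median of 0.30. Over all genes tested 0.34% passed, so that none among 31 is close to that share. Without overlap 2 lay above and 2 below, also close to the 5.04% and 5.26% of all genes tested. Dtx1 (Deltex1; chromosome 5, 120818268 to 120850879), a ubiquitin ligase and target of Notch, had 953, 439 and 971 CPM in MarginalZone and 241, 213, 181 and 89.3 CPM in Follicular libraries (2.12 ± 0.45, adjusted p = 0.113, and 0.000272 to 0.437 over the alternatives). It passed with the term for the libraries that stood apart (2.22 ± 0.20, adjusted p = 0.00151), without them (0.0304) and with the animal as block (0.0144). Hes1, a transcriptional repressor and target of Notch, had 33.7, 20.2 and 194 CPM against 12.5, 21.1, 20.9 and 3.86 CPM (2.50 ± 0.84, adjusted p = 0.388), and its mean rested on MarginalZone replicate 3, without which it was 0.88 (0.879). Notch2 itself had 516, 286 and 547 CPM against 459, 472, 459 and 151 CPM (0.22 ± 0.46). Notch2 overlapped through MarginalZone replicate 2 and Follicular replicate 4, and without them its log2 fold change was 0.19 (adjusted p = 0.741). Dll1, the Notch ligand that niche cells present, was below without overlap at 0.506 CPM or less in MarginalZone and 1.70 to 6.77 CPM in Follicular libraries (-3.65 ± 0.93, adjusted p = 0.193), and the inhibitor Nrarp was below at 0.4503 CPM or less against 0.491 to 1.24 CPM.

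Among 33 migration and adhesion genes Ackr3 rose and none fell; 7 lay above and 5 below without overlap, against 5.04% and 5.26% of all genes tested, with a median of 0.06. S1pr1, the receptor that guides exit toward blood, had 680.1, 642 and 2815 CPM in MarginalZone and 534, 470.2, 629.6 and 262 CPM in Follicular libraries (1.54 ± 0.57, adjusted p = 0.467, and 0.48 without MarginalZone replicate 3). S1pr4 had 41.02, 29.99 and 50.8 CPM against 121, 146, 96.4 and 100.1 CPM (-1.51 ± 0.36, adjusted p = 0.148). The sphingosine-1-phosphate receptors thus lay on both sides of 0, with S1pr1 and S1pr3 above and S1pr4 and S1pr2 below, S1pr2 at 1.23 CPM or less in every library. Cxcr5, the receptor for the follicular chemokine CXCL13, overlapped at 626, 837 and 611 CPM against 395, 377, 359 and 708 CPM (0.59 ± 0.36). Only Follicular replicate 4 reached into the MarginalZone range, and without it the log2 fold change was 0.88 (adjusted p = 0.451). Cxcr4, the signalling receptor for CXCL12, was below at 20.6, 32.9 and 29.5 CPM against 69.8, 141, 167 and 35.0 CPM (-1.90 ± 0.56, adjusted p = 0.294).

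Of 25 Toll-like receptor genes and adaptors, Ly96 rose, none fell, and 6 lay above without overlap (median 0.32). Over all genes tested 0.272% rose, 0.068% fell, 5.04% lay above and 5.26% below, which is the background for each such count in this paragraph. Tlr3, a sensor of double-stranded RNA, had 18.5, 96.9 and 40.6 CPM in MarginalZone and 2.79, 1.81, 3.06 and 7.05 CPM in Follicular libraries (3.82 ± 0.70, adjusted p = 0.0662). Tlr7, a sensor of single-stranded RNA, had 90.4, 119 and 93.6 CPM against 44.3, 15.5, 27.1 and 17.3 CPM (1.96 ± 0.44, adjusted p = 0.138). Both were separate and neither passed, although Tlr3 passed with the animal as block (adjusted p = 0.0252). Tlr9, a sensor of unmethylated DNA, overlapped at 60.6, 34.2 and 573 CPM against 73.8, 104, 110.1 and 21.4 CPM (1.52 ± 0.91). Without MarginalZone replicate 3 its log2 fold change was -0.71. Tlr4 overlapped too (1.29 ± 0.51). Fc and complement receptor genes numbered 16, with Fcrl5 higher, Fcer2a lower and a median near 0. Of 24 genes of the cytoskeleton and membrane remodelling, Myof, Marcks, Tspan15 and Plxnd1 rose and none fell, 6 lay above and 3 below, and the median was -0.16. Sema7a, a membrane-bound semaphorin, had 52.7, 6.71 and 89.9 CPM in MarginalZone and 1.06, 2.41, 3.56 and 0.552 CPM in Follicular libraries (4.71 ± 0.94, adjusted p = 0.0941, and 7.6e-05 with the animal as block). Cd59a, which guards cells from complement, had 10.9, 25.4 and 11.1 CPM against 0.792, 1.70, 1.00 and 2.48 CPM (3.40 ± 0.64, adjusted p = 0.0729).

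No member passed in the other program lists, which is close to the 0.34% of all genes tested that did. Of 34 B lineage transcription factors 5 lay above and 3 below; over all genes tested 5.04% lay above and 5.26% below, which is the background for each such count in this paragraph. Bhlhe41, a repressor known from B-1 cells, had 12.8, 35.2 and 69.0 CPM in MarginalZone and 0.604, 4.57, 2.59 and 5.79 CPM in Follicular libraries (3.52 ± 0.81, adjusted p = 0.144, and 0.0137 with the animal as block). Prdm1, which drives plasma cell formation, had 9.64, 8.06 and 16.0 CPM in MarginalZone and 1.28, 2.87, 1.62 and 0.490 CPM in Follicular libraries (2.84 ± 0.69, adjusted p = 0.165), and Bach2, which restrains it, had 498, 257 and 721 CPM against 2611, 1734, 2482 and 884 CPM (-1.97 ± 0.52, adjusted p = 0.214). Among 24 genes of antibody secretion and the unfolded protein response 4 lay above and none below (median 0.37). Cd80, a costimulator, was the 1 of 20 antigen presentation genes above, at 10.9, 26.9 and 21.3 CPM against 2.08, 1.56, 3.56 and 1.96 CPM (3.10 ± 0.56, adjusted p = 0.0618), and 2 lay below. Of 30 B cell receptor signalling genes 3 lay above, and of 21 BAFF, CD40 and NF-kB genes Rela lay below, the last of these close to the share over all genes. In the RAS to ERK cascade 4 of 29 lay below, the feedback genes Dusp4, Dusp5 and Spry2 and the early gene Ier2, which had 236, 142 and 98.5 CPM against 615, 450.0, 473 and 559 CPM (-1.72 ± 0.39, adjusted p = 0.138). With the term for the libraries that stood apart Prdm1, Bach2, Cd80 and Ier2 passed. Glycolysis (15 genes, 1 with a positive change, median -0.40), the cell cycle (19 genes, 1 above and 1 below, median -0.36) and Myc targets (20 genes, median 0.18) held no called gene.

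Immunoglobulin constant genes were read in TPM, since the gene-span counts list Ighm and Ighd at 0. Igha, of IgA, had 18.8, 53.4 and 90.4 TPM in MarginalZone and 10.1, 9.74, 9.58 and 13.1 TPM in Follicular libraries, without overlap, and its exon reads did not pass (log2 fold change 2.58, adjusted p = 0.289). The Plasma wt libraries averaged 11495 TPM of it. Summed plasma cell markers were at 241, 503 and 230.4 CPM in MarginalZone replicates 1 to 3. In Follicular replicates 1 to 4 they were at 212, 153, 135 and 423 CPM. Xbp1 gave 245 CPM of the sum in MarginalZone replicate 2 and 264 CPM in Follicular replicate 4. The part of plasma cells in the Igha values was not tested. Ighm, of IgM, overlapped at 3106, 5698 and 1428 TPM against 2848, 2033, 2063 and 4659.6 TPM, as did Ighd, of IgD, at 261, 1528 and 522 TPM against 1058, 1284, 1661 and 3903 TPM. For Ighm the libraries that stood apart were the highest of their groups, and for Ighd likewise, where the other MarginalZone libraries (261 and 522 TPM) were below every Follicular one.

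The same contrast in the libraries labelled 1Mek2 (3 MarginalZone, 4 Follicular), which share no sample with the wt libraries, gave 373 of 13398 genes (2.78%), 187 higher (1.4%) and 186 lower (1.39%). Of the 50 genes called in wt, 50 were tested there, 50 had the same direction and 27 were called, among them Ackr3 (7.13 ± 0.76, adjusted p = 0.00277), Fcrl5 (4.12 ± 0.56, 0.00786), Tbc1d9 (5.60 ± 0.52, 0.00143) and Rflnb (-6.26 ± 0.55, 0.00143). Without 1 library labelled 1Mek2 at a time, 10 to 25 of the 50 were called, and in exon reads 13 were. Over all genes 24 higher and 11 lower passed without Follicular replicate 3 or replicate 4 labelled 1Mek2. The targeted genes went only partly with the label: Map2k1 (Mek1) had 16.0 to 44.6 TPM in MarginalZone libraries labelled 1Mek2 and 55.5 to 214 TPM in MarginalZone wt, but overlapped between the genotypes in Follicular libraries. Map2k2 (Mek2) was not lower, with 120 to 196 TPM in MarginalZone libraries labelled 1Mek2 against 46.5 to 98.0 TPM in wt. Cr2 (1.94 ± 0.43, adjusted p = 0.0421), Dtx1 (2.08 ± 0.38, 0.0251), S1pr1 (2.43 ± 0.47, 0.031) and Hes1 (2.92 ± 0.66, 0.0431), which missed the threshold in wt, passed in the libraries labelled 1Mek2. Other identity genes did not pass in the libraries labelled 1Mek2, where S1pr3 differed by 0.84 ± 0.92, Plac8 by 0.38 ± 0.35, Klf2 by -0.10 ± 0.56 and Bach2 by -0.27 ± 0.49. S1pr3 had 39.0, 101 and 26.8 TPM in MarginalZone and 2.50, 64.2, 8.38 and 10.5 TPM in Follicular libraries labelled 1Mek2, so that Follicular replicate 2 reached into the MarginalZone range. The difference between genotypes in the contrast was -2.82 ± 1.25 for S1pr3 (adjusted p = 0.515), and it passed for 0 of the 50 genes and for 1 of 15230 overall (0.00657%; 1425 had an unadjusted p under 0.05, and limma voom called 0). Without MarginalZone wt replicate 3 it passed for 9 genes, and the other single omissions gave 0 to 2.

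**Figure D4:**
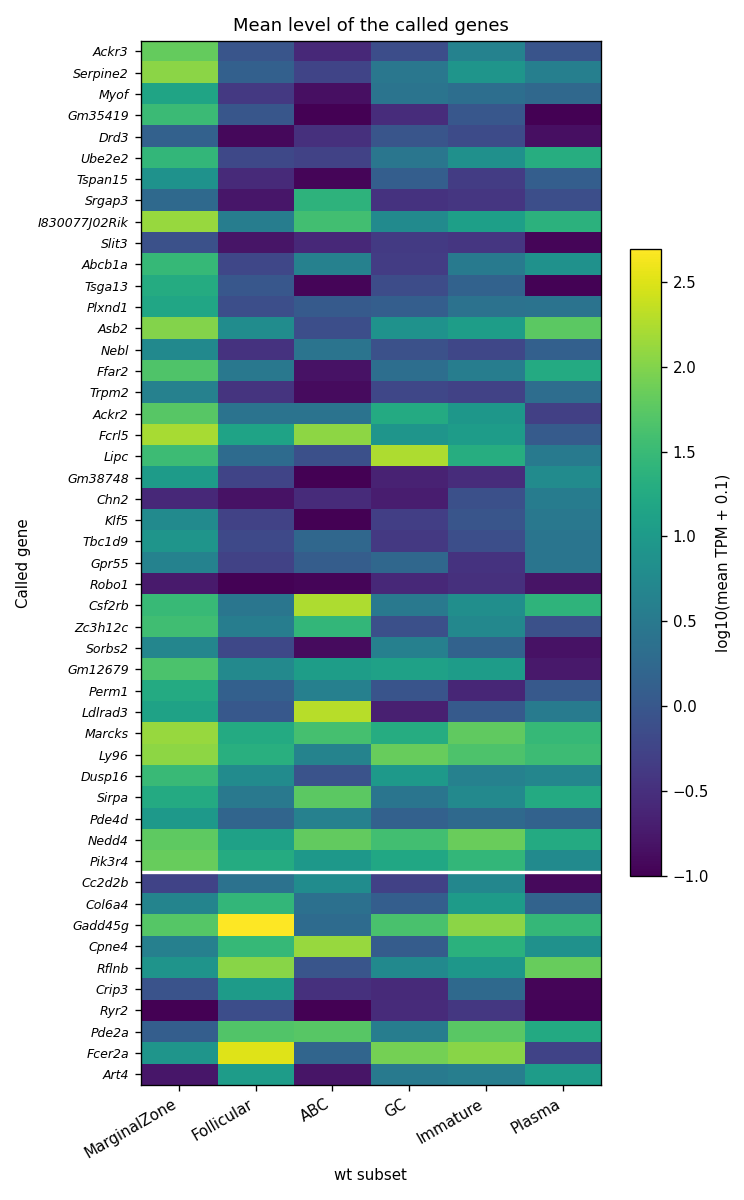
Mean TPM of 49 of the 50 called genes in the 6 subsets labelled wt (3 or 4 libraries each), as log10 of TPM plus 0.1. Genes higher in MarginalZone than Follicular are above the white line. The MarginalZone column is brightest for 31 of the upper 39 genes, and the Follicular column for 6 of the lower 10.

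Set against all 6 wt subsets, 32 of the 40 higher genes had their highest mean TPM in MarginalZone libraries. In 14 of the 40 (35%) every MarginalZone library was above each of the 17 other wt libraries, against 64 of 14068 genes tested (0.455%), although being above Follicular already chose the 40. The mean of the MarginalZone libraries was 15.8 times that of the next subset for Ackr3, 13.6 times for Serpine2 and 5.50 times for Myof, and 1.37 times for Fcrl5, whose next subset was age-associated B cells (ABC; 159 against 116 TPM). The other markers, Asb2 and S1pr3, overlapped other subsets. Asb2 had 31.6 to 151 TPM in MarginalZone and 24.2 to 108 TPM in Plasma libraries, and S1pr3 75.6 to 129 TPM against 10.5 to 79.6 TPM in germinal center libraries. MarginalZone libraries had less than ABC of Csf2rb (28.9 to 33.1 against 103 to 305 TPM) and Ldlrad3 (3.62 to 27.3 against 86.6 to 369 TPM). For Sirpa and Srgap3 the mean was higher in ABC, but the ranges overlapped, at 16.2 to 20.3 TPM in MarginalZone against 2.26 to 143 TPM in ABC and 0.797 to 3.06 TPM against 0.744 to 66.8 TPM. MarginalZone libraries had less of Lipc, the hepatic lipase gene, than germinal center libraries (25.4 to 45.02 against 119 to 204 TPM). Of the 10 lower genes 6 were highest in Follicular libraries, while the mean of Cpne4 was higher in ABC, where it ran from 3.63 to 387 TPM against 24.9 to 35.2 TPM in Follicular libraries. Pde2a ranged from 27.2 to 56.8 TPM in Follicular, 44.4 to 74.2 TPM in Immature and 3.30 to 92.2 TPM in ABC libraries. These levels across subsets were not tested. The wt subsets are taken by label. By its library name, germinal center wt replicate 4 came from an animal marked Mek1ff, whose Immature library is labelled 1Mek2.

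Marker genes of other cells were summed per library. No tested marker of 11 such lists passed between the subsets, which is close to the 0.34% of all genes tested that did. Some lists had few members tested, with 3 of 9 NK cell and 0 of 11 neutrophil markers. Germinal center markers summed to 20.3 to 36.21 CPM in MarginalZone and 36.22 to 47.5 CPM in Follicular libraries, and immature B cell markers to 92.2 to 170.03 CPM against 193 to 308 CPM; these sums did not overlap. The markers of B-1 and age-associated B cells summed to 236 to 689 CPM against 114 to 241 CPM, those of T cells to 23.0 to 141 CPM against 65.2 to 180.3 CPM and those of macrophages to 79.4 to 144 CPM against 75.4 to 336 CPM. Single genes gave the largest part of several sums: Vpreb3 of the immature (91.3 to 145 against 190 to 298 CPM), Zeb2 of the B-1 and age-associated (138 to 600 against 48.3 to 195 CPM) and Lck of the T cell sum. Other members did not follow the sums. Among immature markers Myb was highest in MarginalZone replicate 3 (21.2 CPM). Tbx21, of the B-1 and age-associated list, overlapped (1.75 to 9.28 against 4.20 to 8.53 CPM). Trac, Trbc1 and Trbc2 were counted at 0 in all 7 libraries, but the count table also lists expressed genes such as Gpr183 (80.1 to 277 TPM in MarginalZone and 124 to 326 TPM in Follicular) at 0, so these zeros say nothing of T cells; Cd3d was at 1.40 to 4.04 CPM in MarginalZone and 1.36 to 25.3 CPM in Follicular libraries. In bulk samples fewer cells of a type and less RNA per cell cannot be told apart, and the part of these other cells in the results was not tested.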

How the data were processed

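The 3 MarginalZone wt and 4 Follicular wt libraries were read from a table of raw counts per gene span (introns included) and a TPM table, both deposited by the authors. Reads had been trimmed with Trim Galore 0.6.5, aligned with STAR 2.7.11a and counted with featureCounts 2.0.3 on GRCm39, per the submitters' processing notes; strand use and the handling of overlapping genes are not given in the sources used here. TPM per the deposited table times exonic length gave whole reads on exons for 99.95% of 851064 values within 0.02 of a read (99.5% in the lowest library), and these served as a second count. The count table lists 1849 genes at 0 in all libraries that have a mean of 10 or more exon reads.

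Counts were tested with edgeR 4.0.16 in R 4.3.3 (TMM, filterByExpr, robust quasi-likelihood fit, two-sided, Benjamini-Hochberg adjusted p under 0.05 over all genes tested). The SE is the log2 fold change divided by the square root of F. Alternatives used limma 3.58.1 and DESeq2 1.42.0, log2(TPM + 1) and log2(TPM + 0.1) among them. CPM values are TMM-scaled, and precision follows from 3 and 4 libraries. The libraries came from separate animals except that 412 and 562 gave both subsets; deviations from the group means correlated at 0.296 and 0.286 within these animals and at 0.557 between the 2 libraries that stood apart, which were identified from the values. The fit was checked on simulated data.

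Genes named are the gate, marker and key genes, the called genes (at most 20 higher and 12 lower, by log2 fold change) whose groups were separate and whose higher group averaged 5 CPM or more, called members of the lists, and up to 3 members a list whose groups did not overlap; a few of them are not reported here. The comparison, its members and the lists were chosen with earlier results of these data known. Promoter windows came from RefSeq on GRCm38.p6.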

Additional observations from a re-analysis of the deposited data

Results flagged for a closer look

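In groups of 4 libraries, a value was picked out where its gap to the nearest other library exceeded Dixon's 95% critical share of the group's range. Of 82 genes examined in the Follicular wt libraries 13 were picked out, 11 in replicate 4 and 2 in replicate 1. Chance picks out about 1 in 20 where values are independent and normally distributed. These were CPM of genes that share the same libraries, some of them named because their groups were separate. The count therefore cannot be tested against that rate. The MarginalZone group, with 3 libraries, was not examined in this way.

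Follicular replicate 4 was above the other Follicular libraries for Fcer2a (1143 CPM, next 398.6), Sdc1 (9.376, next 2.06), S1pr3 (25.12, next 7.471), Cd1d1 (104.2, next 17.83), Cd9 (40.51, next 6.591), Ccr7 (729.6, next 119.9), Cxcr5 (707.7, next 395.2), Tnfrsf13b (636.7, next 231.8), Myc (154.7, next 38.52) and Art4 (25.34, next 6.833). It was below them for Notch2 (150.8 CPM, next 459). This library also had the highest share of reads on exons (87.3%), and the part of that share in these values was not tested. Follicular replicate 1 was above the others for Cr2 (910.3 CPM, next 615.5) and below them for Fcrl5 (18.64, next 22.02).

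The contrast of MarginalZone minus Follicular differed between the libraries labelled 1Mek2 and wt for A430005L14Rik, by -5.405 on the log2 scale (SE 0.75; edgeR interaction term, adjusted p = 0.0288). It was called in 3 of 14 fits that each left out 1 library, and limma voom did not call it. It had 1.28, 1.01 and 2.46 CPM in MarginalZone libraries labelled 1Mek2 and 48.7 to 72.9 CPM in Follicular ones, against 32.2, 61.8 and 45.0 CPM in MarginalZone wt and 21.3 to 78.9 CPM in Follicular wt.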

How the results depend on the processing

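The 50 genes called between MarginalZone and Follicular wt became 48 with RLE scaling, 542 with DESeq2, 61 with limma voom, 108 with no filter on low counts, 39 with all 12 groups in the fit, 661 with both genotypes and terms for subset and genotype, 103 with background reads as a covariate, 263 with the term for the 2 libraries that stood apart, 59 without them, 15 in exon reads and 78 in exon reads with that term. The settings that concern these 2 libraries were chosen after seeing the data. limma gave 25 on log2(TPM + 1), 4 on log2(TPM + 0.1) and 0 on log2(TPM + 1) without a filter, where 1193 had an unadjusted p under 0.05; log2(TPM + 1) and log2(TPM + 0.1) put the median log2 fold change of all genes at -0.14 and -0.20, and leaving out Follicular replicate 4 put it at 0.13, against 0.02 in the reported fit and within 0.1 of 0 in the other settings of this comparison. The animal as replicate block gave 116 as a fixed and 215 as a random term. Without 1 library the count ran from 11 to 63. In the libraries labelled 1Mek2, 27 of the 50 were called, 13 in exon reads, 26 with the animal as a random replicate block, and 10 to 25 without 1 library. The genotype difference called 1 gene, 0 with limma voom, 1 with the random replicate block and 0 to 9 without 1 library.

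None of the called genes reversed. Uncalled genes that did, with their range without 1 library at a time, were Mzb1 (-0.0417 to 0.93; -0.37 and -0.0491 with the fixed and random replicate block), Ptprc (-0.23 to 0.34), Notch2 (-0.0495 to 0.45; -0.17 with the background covariate), Myc (-0.70 to 1.95; -0.19 with both genotypes), Map2k2 (-0.49 to 0.0793; 0.0655 with both genotypes) and Tlr9 (-0.71 to 2.02; -0.95 with the background covariate). Cnr2 ran from -0.0826 to 0.25 and was -0.13 in exon reads, -0.26 in exon reads with the term, -0.22 on log2(TPM + 1) with and without a filter and -0.23 on log2(TPM + 0.1). Fas was -0.48 with both genotypes, -0.19 in exon reads, -0.64 in exon reads with the term, -0.54 on log2(TPM + 1) with and without a filter and -1.06 on log2(TPM + 0.1). The cause was not tested. Ackr3, I830077J02Rik and Pde2a were each called in 22 of 23 alternatives.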
